A study of Mus musculus with 6 samples.

Results

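The scavenger receptors described here are 9 genes, *Mrc1*, *Colec12*, *Msr1*, *Marco*, *Stab1*, *Cd163*, *Scarb1*, *Scarb2* and *Lrp1*, of the 36137 genes with a quantified transcript in these libraries. They were chosen by name, with results of the WT against Drp1 KO comparison already known, so their values in that comparison are given as a description, and the calls of the fit across all genes are printed for them without being read as evidence. All 9 genes passed the filter of at least 10 counts over the 6 libraries.

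RNA was sequenced from bone marrow-derived macrophages (BMDMs), which are macrophages grown from marrow cells in medium conditioned by L929 cells. The 3 WT libraries came from LysM-Cre+/- Drp1+/+ mice and the 3 Drp1 KO libraries from LysM-Cre+/- Drp1 fl/fl mice, all adult and on a C57BL/6J background. Both groups therefore carry Cre recombinase under the lysozyme M promoter, which is active in myeloid cells, and differ in the floxed alleles of *Dnm1l*, the gene of the mitochondrial fission GTPase DRP1. On day 7 of culture, all 6 cultures were moved to serum-free medium at 2.1% oxygen for 8 h (hypoxia serum starvation, HSS), and no untreated library was analysed here. Marrow of 2 mice per genotype was pooled, and whether each library is a separate pool is not stated, so the standard errors and p-values measure the spread between these libraries.

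Scavenger receptors are surface and lysosomal proteins that macrophages use to take up modified lipoproteins, glycoproteins, microbes, debris and haem-carrying complexes. They belong to unrelated protein families. C-type lectins read sugars, and class A receptors bind polyanions and have a collagen-like stalk. Class B receptors are hairpins with membrane anchors at each end, and LRP1 is a very large member of the LDL receptor family. *Mrc1*, which encodes the mannose receptor CD206, is widely used as a marker of M2-like macrophages.

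The deposited estimated counts summed to 23389488 to 32231206 per library, and 3 counts, taken as the floor, correspond to 0.0917 to 0.136 CPM (a counts-per-million scale, with library sizes corrected by the TMM method). Libraries numbered 1 stood apart from the others in both groups along the second principal component of log2 CPM (29.5% of the variance), while the first (46.0%) separated the genotypes. Levels of *Dnm1l* were 72.8, 69.9 and 75.1 CPM in WT libraries 1 to 3 and 58.8, 60.7 and 66.3 CPM in Drp1 KO libraries 1 to 3, a log2 fold change of -0.23 (SE 0.092, edgeR adjusted p = 0.248). Its groups did not overlap, and it was called under none of 15 other processing settings. Gene totals cannot locate a deleted exon, so in these libraries the label rests on the submitters' genotype. By immunoblot, the paper reports loss of DRP1 protein in BMDMs and peritoneal macrophages of the knockout mice. Of 8 macrophage markers, all were detected, with *Adgre1*, the gene of F4/80, at 1341 ± 213 CPM in WT BMDMs against 1386 ± 73.6 in Drp1 KO BMDMs (SD, n = 3 each). In bulk RNA, fewer cells of a type and less RNA per cell cannot be told apart.

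In WT BMDMs, *Mrc1* was the most abundant receptor per unit of length, at 449 ± 20.4 TPM (a transcripts-per-million scale, corrected for transcript length), followed by *Msr1*, the class A receptor SR-A, at 319 ± 19.2 TPM (SD, n = 3 each, here and for the levels that follow). *Lrp1* reached 170 ± 40.3 TPM, *Scarb2* 131 ± 4.78 TPM, *Marco* 106 ± 60.03 TPM, *Scarb1* 71.5 ± 3.85 TPM and *Stab1* 65.6 ± 6.40 TPM. The lowest pair was far lower, *Colec12* at 10.1 ± 1.67 TPM and *Cd163* at 0.650 ± 0.146 TPM. *Mrc1* and *Msr1* each stood clear of the next gene in every WT library, whereas the libraries of *Lrp1* and *Scarb2*, *Scarb2* and *Marco*, *Marco* and *Scarb1*, and *Scarb1* and *Stab1* overlapped, so the order within that run is not resolved by the replicates.

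In Drp1 KO BMDMs the upper pair changed places on this scale, with *Msr1* at 396 ± 40.4 TPM and *Mrc1* at 320 ± 4.71 TPM and no overlap of their libraries. Of the summed TPM of the 9 genes, *Mrc1* held 34.0% in WT and 29.8% in Drp1 KO BMDMs, and *Msr1* held 24.1% and 36.9%. *Lrp1* (127 ± 27.9 TPM), *Scarb2* (98.5 ± 2.64 TPM), *Scarb1* (67.7 ± 10.0 TPM) and *Stab1* (39.6 ± 3.48 TPM) came next, and *Marco* (19.3 ± 6.38 TPM) now lay below *Stab1*. *Colec12* (5.68 ± 0.286 TPM) and *Cd163* (0.213 ± 0.0762 TPM) again came last, and among neighbours only *Lrp1* and *Scarb2* overlapped. The exchange of the upper pair and the place of *Marco* below *Stab1* depend on the length used. With counts divided by the length of all annotated exons, *Mrc1* stayed first in Drp1 KO BMDMs, at 142 ± 3.81 CPM per kilobase against 116 ± 11.3 for *Msr1*. On that scale *Marco* stayed above *Stab1* in Drp1 KO BMDMs, at 15.0 ± 4.69 against 10.8 ± 0.774 CPM per kilobase, and *Lrp1* came second in WT.

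**Figure D1:**
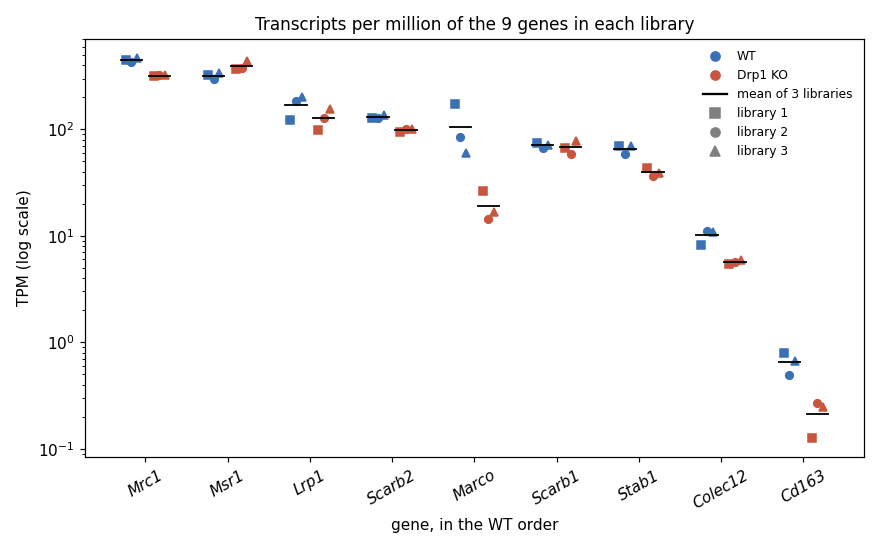
Level of each of the 9 genes in TPM (log scale) in the 3 WT and 3 Drp1 KO libraries, with genes in the order of their WT means; black lines are means of 3 libraries and the marker shape gives the library number. *Mrc1* lies above *Msr1* in WT and below it in Drp1 KO libraries, and *Cd163* lies below 1 TPM in every library.

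Between genotypes, 8 of the 9 receptor genes were lower in Drp1 KO BMDMs and 1, *Msr1*, was higher. The same 8 genes were lower in each of the 3 comparisons of a Drp1 KO library with the WT library of the same number. The log2 fold changes ran from -2.39 for *Marco* to 0.46 for *Msr1*, with a median of -0.44, beside a median of 0.00 over the 18506 genes tested. The receptors are described below by family.

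**Figure D2:**
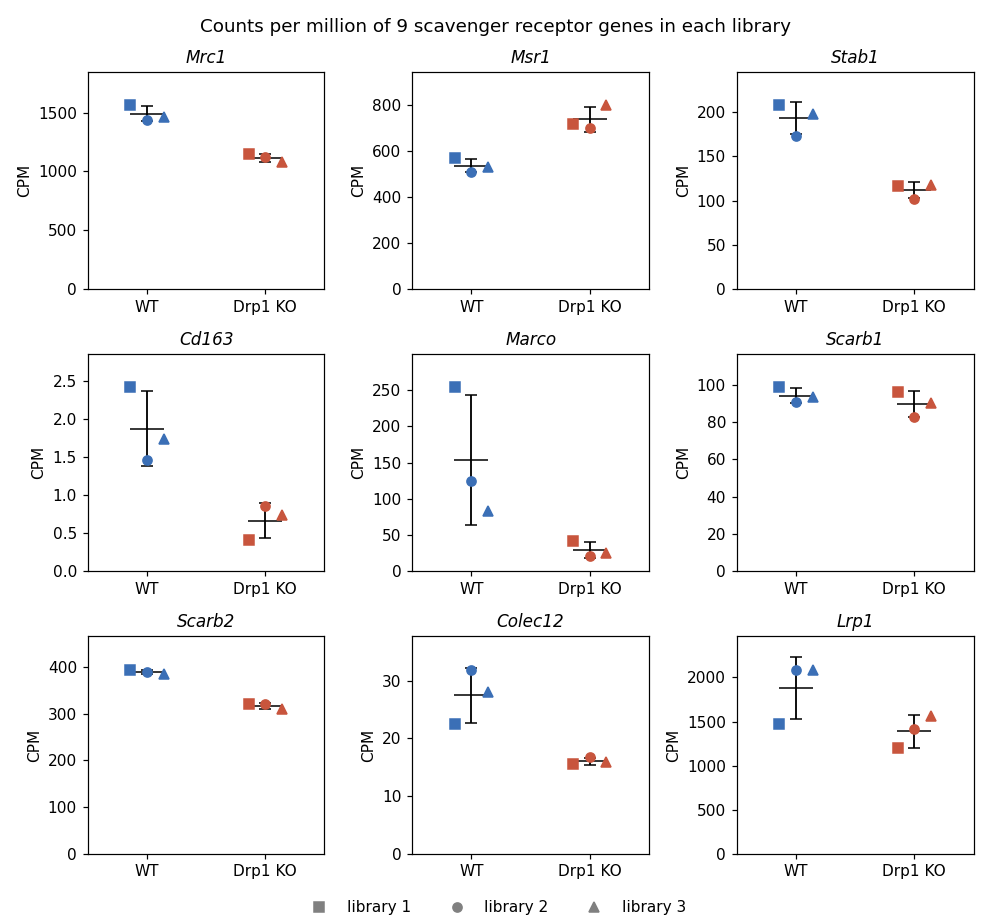
CPM of the 9 genes in each library, WT in blue and Drp1 KO in red, on linear axes from 0; black bars are the mean ± SD of 3 libraries and marker shapes give the library number. The groups are separated for 7 genes and overlap for *Scarb1* and *Lrp1*, and library 1 is the highest *Marco* value and the lowest *Lrp1* value in both groups.

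Among the lectin receptors, *Mrc1* (ENSMUSG00000026712) lies on the forward strand of GRCm39 at chr2:14234151-14336926. Its endocytic product binds mannose, fucose and N-acetylglucosamine on glycoproteins and microbes. *Mrc1* levels were 1564, 1439 and 1466 CPM in WT libraries 1 to 3 and 1147, 1120 and 1079 CPM in Drp1 KO libraries 1 to 3. Every Drp1 KO library was below every WT library, and the spread within a group was small, with coefficients of variation of 4.41% and 3.07%. The means were 1490 ± 65.7 and 1115 ± 34.3 CPM (SD, n = 3 each), the log2 fold change was -0.42 (SE 0.0937), and the log2 differences between same-numbered libraries were -0.45, -0.36 and -0.44. Transcript Mrc1-201, which codes for the full receptor of 1456 codons over 30 exons, held 99.8% of the gene's counts in WT, so the gene total is in effect that of a single form. The microRNA gene *Mir511* lies inside *Mrc1* on the same strand and was not measured by these tables.

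*Colec12* (ENSMUSG00000036103, forward strand, chr18:9707593-9882644) encodes collectin-12 (CL-P1, also called SR-A4), which joins a collagen-like stalk to a C-type lectin head and is best known from vascular cells. *Colec12* was measured at 22.51, 31.97 and 28.04 CPM in WT and at 15.6, 16.7 and 15.9 CPM in Drp1 KO libraries. No library of the groups overlapped, and the fitted log2 fold change was -0.78 (SE 0.137). Its WT spread was wider (coefficient of variation 17.3%) than its Drp1 KO spread (3.67%), and WT library 1 was the lowest WT value. Most of its counts were assigned to Colec12-201, which the annotation marks as a target of nonsense-mediated decay, at 59.2 ± 3.06% in WT and 65.2 ± 4.54% in Drp1 KO libraries (SD, n = 3 each). The coding form Colec12-204, of 742 codons, had 2.29 ± 0.578 TPM in WT and 1.08 ± 0.167 TPM in Drp1 KO BMDMs.

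Among the class A receptors, *Msr1* (ENSMUSG00000025044, reverse strand, chr8:40034726-40095714) was the single gene of the 9 with higher levels in Drp1 KO BMDMs. Its product SR-A is a trimer that takes up acetylated and oxidised LDL and binds bacterial surface polymers. *Msr1* was at 569.0, 509.4 and 531.6 CPM in WT libraries and at 715.0, 698.1 and 799.2 CPM in Drp1 KO libraries. Its highest WT library lay below its lowest Drp1 KO library, the means were 536.6 ± 30.1 and 737.4 ± 54.2 CPM (SD, n = 3 each), and the log2 fold change was 0.46 (SE 0.0987). Same-numbered libraries differed by 0.33, 0.45 and 0.59 on the log2 scale.

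*Msr1* is spliced into a type I receptor, which ends in a cysteine-rich SRCR domain, and a type II receptor, which lacks it. In the annotation, Msr1-201 (458 codons) is the type I form and Msr1-202 (354 codons) the type II form, both have a run of 25 uninterrupted Gly-X-Y triplets, the collagen-like stalk, and they hold 10 and 4 cysteine codons. The coding exons below are those that only the type I form has, and capitals mark their 6 cysteine codons, all of the difference between the forms. They are printed because the TPM of the forms differed in opposite directions between the genotypes, 5′ to 3′ on the reverse strand of GRCm39. The coding end that is particular to the type II form is 8 bases long (chr8:40059016-40059023).
Msr1-201, chr8:40042331-40042519: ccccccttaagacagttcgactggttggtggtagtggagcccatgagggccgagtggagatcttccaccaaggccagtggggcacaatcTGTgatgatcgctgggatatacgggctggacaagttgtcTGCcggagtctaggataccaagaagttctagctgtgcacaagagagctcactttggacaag
Msr1-201, chr8:40034776-40034906: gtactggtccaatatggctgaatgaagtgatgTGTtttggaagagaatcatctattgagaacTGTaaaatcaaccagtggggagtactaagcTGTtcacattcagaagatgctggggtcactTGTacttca
Msr1-202, chr8:40059016-40059023: gatcagta

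The type II form Msr1-202 carried the higher gene total of Drp1 KO BMDMs, at 248, 232 and 259 TPM in WT libraries and 306, 315 and 382 TPM in Drp1 KO libraries. The type I form Msr1-201 stood at 70.7, 60.9 and 70.6 TPM in WT and at 58.7, 53.9 and 51.6 TPM in Drp1 KO libraries. So on the TPM scale the type II values lay higher and the type I values lower in each Drp1 KO library than in any WT library. In CPM (its share of the counts times the CPM of the gene) the type I form stood at 61.1, 50.9 and 55.0 in WT and at 53.7, 47.4 and 43.4 in Drp1 KO libraries, so the groups overlapped on that scale, while the type II form did not overlap on either. The type I form took 10.7%, 10.0% and 10.3% of the estimated counts of *Msr1* in WT libraries and 7.51%, 6.79% and 5.43% in Drp1 KO libraries. Counted as TPM, which corrects for the longer 3′ end of Msr1-202, its mean share was 21.1% in WT and 14.0% in Drp1 KO BMDMs. These are estimates that kallisto assigns among transcripts that share most of their exons, and no test was made of them.

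*Marco* (ENSMUSG00000026390, reverse strand, chr1:120402267-120432753) encodes a class A receptor with a long collagen-like stalk and a terminal SRCR domain, which binds bacteria and inhaled particles. *Marco* levels were 253.7, 124.0 and 82.7 CPM in WT libraries 1 to 3 and 41.4, 21.9 and 24.7 CPM in Drp1 KO libraries 1 to 3. The groups did not overlap, although the 3 WT libraries differed more among themselves (coefficient of variation 58.2%) than those of any other receptor here, and library 1 was the highest of its group on both sides. The means of 154 ± 89.2 and 29.3 ± 10.6 CPM (SD, n = 3 each) gave a log2 fold change of -2.39 (SE 0.380), or 5.25-fold lower, which is the largest difference among the 9 genes. With libraries numbered 1 left out of both groups, a setting added after the data were seen, it was -2.15, and with 1 library left out in turn it ran from -2.73 to -1.82. Marco-201, of 518 codons, held 99.9% of its counts.

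*Stab1* and *Cd163* are receptors associated with tissue-resident and M2-like macrophages. *Stab1* (ENSMUSG00000042286, reverse strand, chr14:30860970-30890598) encodes stabilin-1, a very large protein of EGF-like and fasciclin domains that clears SPARC and acetylated LDL. Its levels were 208.2, 173.0 and 198.0 CPM in WT and 117.0, 101.5 and 117.3 CPM in Drp1 KO libraries. Library 2 was the lowest of each group, and the groups were far apart, with means of 193 ± 18.1 and 112 ± 9.02 CPM (SD, n = 3 each). The log2 fold change of *Stab1* was -0.79 (SE 0.106), with same-numbered differences of -0.83, -0.77 and -0.76.

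Only part of the *Stab1* counts belonged to the full coding transcript. Stab1-201 (69 exons, 2571 codons) held 56.9 ± 4.10% of them in WT and 47.9 ± 4.37% in Drp1 KO libraries (SD, n = 3 each). Most others were given to Stab1-205, at 38.4 ± 4.80% in WT and 45.3 ± 5.17% in Drp1 KO libraries, a non-coding retained-intron model of 18 exons, 16 of them identical with exons of Stab1-201 at the 5′ end. Stab1-201 had 15.6, 14.9 and 18.1 TPM in WT and 7.18, 6.44 and 8.99 TPM in Drp1 KO libraries. Stab1-205 had 47.1, 31.3 and 40.6 TPM in WT and 28.0, 24.1 and 24.1 TPM in Drp1 KO libraries. Both models were lower in each Drp1 KO library than in any WT library. Reads from the shared exons can be assigned to either model.

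*Cd163* (ENSMUSG00000008845, forward strand, chr6:124281606-124307560) encodes the SRCR-domain receptor that takes up haptoglobin-haemoglobin complexes. It was the scarcest of the 9 genes, with 56, 39 and 51 counts in WT libraries and 9, 28 and 24 counts in Drp1 KO libraries. These counts correspond to 2.41, 1.46 and 1.74 CPM in WT and 0.409, 0.855 and 0.736 CPM in Drp1 KO libraries. All libraries were above the floor of 3 counts and the groups did not overlap, but the values are few reads each. The log2 fold change of *Cd163* was -1.45 (SE 0.354), and it was -1.01 with libraries numbered 1 left out. Same-numbered libraries differed by -2.37, -0.73 and -1.16 on the log2 scale, so the size of the difference is poorly fixed. The coding model Cd163-202 held 84.6% of the counts over all libraries, the coding model Cd163-201 9.81% and the retained-intron model Cd163-203 5.54%. With so few reads, Cd163-201 and Cd163-203 were each given 0 counts in at least 1 library.

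**Figure D3:**
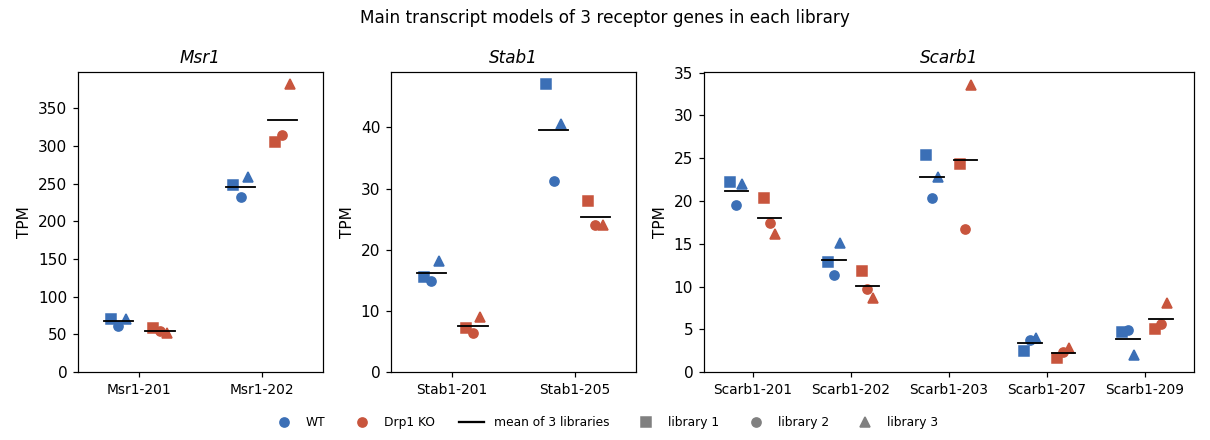
TPM of the transcript models with at least 5% of the counts of *Msr1*, *Stab1* and *Scarb1* in each library, WT in blue and Drp1 KO in red, with black lines at the means of 3 libraries. Msr1-202 is higher and Msr1-201 lower in Drp1 KO libraries, both *Stab1* models are lower, and of the 5 *Scarb1* models 4 overlap between the groups and Scarb1-209 is higher in each Drp1 KO library than in any WT library.

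The class B genes differed least between the genotypes. *Scarb1* (ENSMUSG00000037936, reverse strand, chr5:125353547-125418176) encodes SR-BI, the HDL receptor that mediates selective uptake of cholesteryl ester. *Scarb1* was at 98.7, 90.6 and 93.3 CPM in WT and at 96.4, 82.6 and 90.4 CPM in Drp1 KO libraries. The groups overlapped, and the log2 fold change of -0.07 was smaller than its SE of 0.0947. It came to 0.00 when counts were scaled to transcript length, the one setting of 15 in which its sign turned.

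*Scarb1* makes the receptors SR-BI and SR-BII, which differ in the C-terminal cytoplasmic tail. Scarb1-201 (509 codons) ends in the tail of SR-BI, whose last residues bind the adaptor PDZK1, and Scarb1-202 (506 codons) skips that exon and ends in the SR-BII tail. The coding stretch particular to each form is printed to show how the counts of the gene divide, 5′ to 3′ on the reverse strand of GRCm39, with the last 4 codons of the SR-BI tail in capitals.
Scarb1-201, chr5:125358172-125358297: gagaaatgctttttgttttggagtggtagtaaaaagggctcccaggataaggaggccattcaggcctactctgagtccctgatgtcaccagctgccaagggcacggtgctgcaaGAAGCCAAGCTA
Scarb1-202, chr5:125354813-125354929: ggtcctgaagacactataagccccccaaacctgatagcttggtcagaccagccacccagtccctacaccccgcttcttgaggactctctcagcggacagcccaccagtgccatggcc

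The SR-BI form held 45.2 ± 0.960% of the estimated counts of *Scarb1* in WT and 42.5 ± 5.23% in Drp1 KO libraries, and the SR-BII form 26.0 ± 2.56% and 22.3 ± 3.47% (SD, n = 3 each). The SR-BI form had 22.17, 19.49 and 21.97 TPM in WT and 20.4, 17.4 and 16.1 TPM in Drp1 KO libraries, values that overlapped between the groups. In each group the tail of SR-BI was thus counted more often than that of SR-BII. Retained-intron models took much of the rest. Scarb1-203 held 10.4% to 12.1% of the counts across WT libraries and 9.96% to 17.8% across Drp1 KO libraries, and Scarb1-207 held 5.54% to 8.91% and 3.94% to 6.88%, so both overlapped between the groups. Scarb1-209 held 7.76%, 9.02% and 3.35% in WT and 9.25%, 11.7% and 14.7% in Drp1 KO libraries. It was the only one of the 5 models whose groups did not overlap, in its share or in TPM, with 4.65, 4.96 and 2.03 TPM in WT and 5.08, 5.63 and 8.06 TPM in Drp1 KO libraries, and the gap between WT library 2 and Drp1 KO library 1 was small. No test was made of these estimates.

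*Scarb2* (ENSMUSG00000029426, reverse strand, chr5:92589169-92654692) encodes LIMP-2, an abundant protein of the lysosomal membrane. It was the most even of the 9 genes, at 394.6, 389.5 and 384.3 CPM in WT and 320.3, 321.1 and 309.6 CPM in Drp1 KO libraries. The groups did not overlap, their coefficients of variation were 1.32% and 2.03%, and the log2 fold change was -0.30 (SE 0.085).

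*Lrp1* (ENSMUSG00000040249, reverse strand, chr10:127374012-127457017) encodes a receptor for apolipoprotein E, protease-inhibitor complexes and calreticulin-bearing dying cells. *Lrp1* was at 1475, 2090 and 2081 CPM in WT libraries 1 to 3 and at 1194, 1410 and 1562 CPM in Drp1 KO libraries 1 to 3. Library 1 was the lowest of each group, and WT library 1 lay below Drp1 KO library 3, so the groups overlapped. The log2 fold change was -0.44 (SE 0.154), and -0.49 with libraries numbered 1 left out of both groups. Its transcript Lrp1-201, of 89 exons and 4545 codons, held 98.9 ± 0.312% of the counts in WT BMDMs.

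**Figure D4:**
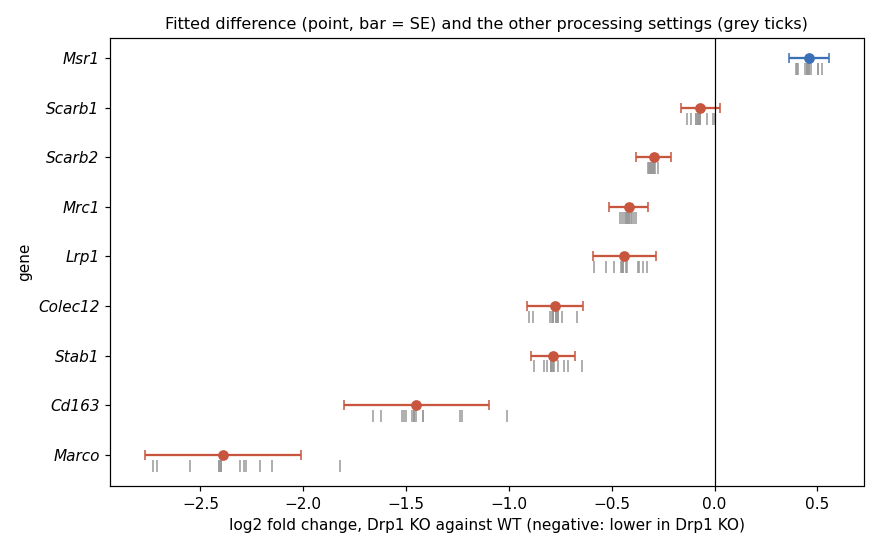
Fitted log2 fold change of each of the 9 genes, Drp1 KO against WT, as points with bars of 1 SE; grey ticks give the value under each of 15 other processing settings. The values run from -2.39 for *Marco* to 0.46 for *Msr1*, and *Scarb1* is the only gene with ticks at 0.

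At an adjusted p under 0.05 (edgeR), 5 of the 9 genes were called, *Mrc1*, *Msr1*, *Stab1*, *Marco* and *Colec12*, where 3.36% of all genes tested were called. Of these, 4 were lower, against 1.06% of all genes, and 1 was higher, against 2.29%. At an unadjusted p under 0.05 and a log2 fold change over 0.32 in size, 7 of 9 were called, all but *Scarb1* and *Scarb2*, against 12.7% of all genes. The libraries of the groups did not overlap for 7 of 9, all but *Scarb1* and *Lrp1*, against 21.9% of all genes. With same-numbered libraries treated as pairs (a replicate block), 8 of 9 were called, all but *Scarb1*, against 12% of all genes. This pairing was inferred from these data and is stated by no source. Since the genes were chosen with this comparison known, nothing is read from these counts. The counts also moved with the libraries used: without Drp1 KO library 2 *Stab1* alone was called, without Drp1 KO library 3, WT library 2 or WT library 3 *Stab1* and *Marco* were, and without WT library 1 *Mrc1* was not while *Lrp1* was. With 1 library left out in turn, the log2 fold changes themselves kept their signs, from -0.46 to -0.38 for *Mrc1* and from 0.40 to 0.50 for *Msr1*. They ran from -0.88 to -0.72 for *Stab1*, from -0.90 to -0.67 for *Colec12* and, more widely, from -2.73 to -1.82 for *Marco*. Calls over all genes moved in both directions, from 621 to 268 without Drp1 KO library 2, 348 without Drp1 KO library 3, 181 without WT library 2 and 217 without WT library 3, but to 904 without Drp1 KO library 1, 744 without WT library 1 and 1880 without both. *Stab1* was called under each of the 15 other settings and *Scarb1* under none.

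Across the 6 libraries, the genes whose log2 CPM profile lay nearest to that of *Mrc1*, out of 7953 genes averaging 10 CPM or more, were *Cdk5rap3*, *Anp32a*, *Anp32e*, *Sart3* and *Clasrp*. Their root mean square difference from *Mrc1* after centring was 0.0287, 0.0294, 0.0340, 0.0356 and 0.0358 log2 units. *Anp32a* was at 241.6, 214.7 and 218.1 CPM in WT and at 169.0, 161.5 and 161.0 CPM in Drp1 KO libraries. Its groups, like those of *Mrc1*, did not overlap. Of the other 8 receptors, *Scarb2* was the nearest to *Mrc1*, at 0.0680 log2 units, and *Marco* the farthest, at 1.07. All 6 points share the difference between the genotypes, so the likeness is a description.

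The RefSeq table of promoters (GRCm38.p6, a build other than that of the counts) held 6 of the 9 genes, *Mrc1*, *Marco*, *Stab1*, *Cd163*, *Scarb2* and *Lrp1*, and did not hold *Msr1*, *Scarb1* or *Colec12*. The 250 bases before each start were searched on both strands for GAGGAA, the core bound by the myeloid factor PU.1, and for the core of interferon-stimulated response elements (GAAA, any 2 bases, GAAA). The first occurred in 3 of the 6 windows, 3 times in *Mrc1* and once each in *Marco* and *Stab1*, and in 23.3% of 32851 promoter windows of that length. The second occurred in 0 of the 6 and in 2.98% of all windows. All 6 genes with a window were lower in Drp1 KO BMDMs, the 3 without a match included. The 3 windows with GAGGAA are printed to show where the matches lie, 5′ to 3′ in the direction of transcription, with the match, or its reverse complement TTCCTC, in capitals. A match is a description of letters and not a binding site.
Mrc1, chr2:14229164-14229413, forward strand: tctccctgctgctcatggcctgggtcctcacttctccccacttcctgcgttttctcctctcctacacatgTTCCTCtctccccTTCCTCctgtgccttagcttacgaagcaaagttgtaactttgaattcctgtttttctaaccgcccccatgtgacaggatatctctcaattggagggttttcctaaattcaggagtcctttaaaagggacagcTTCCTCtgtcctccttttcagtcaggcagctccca
Marco, chr1:120505025-120505274, reverse strand: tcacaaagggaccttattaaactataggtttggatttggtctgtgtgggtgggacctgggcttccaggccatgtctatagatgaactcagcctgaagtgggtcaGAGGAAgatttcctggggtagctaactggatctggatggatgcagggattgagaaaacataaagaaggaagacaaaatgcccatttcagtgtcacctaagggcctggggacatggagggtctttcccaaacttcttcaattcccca
Stab1, chr14:31168642-31168891, reverse strand: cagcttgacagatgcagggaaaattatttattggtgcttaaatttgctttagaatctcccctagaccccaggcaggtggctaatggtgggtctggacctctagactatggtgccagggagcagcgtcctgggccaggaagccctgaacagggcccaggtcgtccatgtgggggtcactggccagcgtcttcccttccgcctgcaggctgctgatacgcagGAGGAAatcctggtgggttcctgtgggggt

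Around the 9 receptors, 72 other genes of scavenging were listed, and 68 had enough counts to be tested. These lists too were made with earlier results of these data known. Their calls and p-values, here and by list below, are therefore given as a description. Of these 68, 6 passed at an adjusted p under 0.05 (edgeR), and all 6 fell in Drp1 KO BMDMs, beside 3.36% of all genes called and 1.06% called lower. They were *Lrp6*, *Sorl1*, *Adam17*, *Mmp14*, *Maf* and *Abca1*. By sign alone, 46 of the 68 were lower and 22 higher, with a median log2 fold change of -0.08, where 9141 of all 18506 genes were lower. With the replicate block, 14 were called lower and 7 higher, beside 12% of all genes called.

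*Lrp6*, a Wnt co-receptor of the LDL receptor family, fell from 264.8 ± 24.9 to 189.8 ± 12.9 CPM, a log2 fold change of -0.48 (adjusted p = 0.0333, edgeR). *Sorl1*, a sorting receptor of the same family, had a log2 fold change of -0.55 (adjusted p = 0.0315, edgeR), with 66.2, 75.9 and 84.2 CPM in WT and 49.2, 48.6 and 57.0 CPM in Drp1 KO libraries. Neither *Lrp12*, with a log2 fold change of 0.15 (adjusted p = 0.807, edgeR), nor *Lrp8*, an apolipoprotein E receptor, with -0.59 (adjusted p = 0.313, or 0.00162 with the replicate block), passed. Of the 10 family genes tested besides *Lrp1*, 2 were called lower and 0 higher.

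The other scavenger receptors showed no call, 0 of 10 tested by edgeR, with 2 at an unadjusted p under 0.05, 1 called by DESeq2 and 0 by limma-voom. *Cd36*, a class B receptor for oxidised LDL, was at 1710, 1879 and 1904 CPM in WT and at 1967, 1510 and 2085 CPM in Drp1 KO libraries, with a log2 fold change of 0.02 (SE 0.131). *Cd68*, macrosialin, likewise overlapped between the groups (-0.02, SE 0.159), and *Cxcl16*, a membrane chemokine that binds oxidised LDL, had -0.20 (SE 0.127). *Stab2*, the paralog of *Stab1*, was at 9.75, 7.05 and 6.54 CPM in WT and at 4.81, 4.71 and 3.53 CPM in Drp1 KO libraries, a log2 fold change of -0.84 (adjusted p = 0.0565, or 0.00432 with the replicate block, edgeR). *Scarf2* had 0.54 (adjusted p = 0.506). Of the mannose receptor family of *Mrc1*, 0 of 3 were called by edgeR, DESeq2 or limma-voom and 1 had an unadjusted p under 0.05. *Ly75* (DEC-205) had a log2 fold change of -0.30, *Mrc2* (Endo180) -0.19 at 0.353 CPM in WT, and *Pla2r1* 0.69 (adjusted p = 0.112, or 0.0237 with the replicate block).

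Sheddases release the outer parts of receptors from the membrane, and 2 of 6 tested were called, both lower. *Mmp14*, a membrane metalloproteinase that can cleave LRP1, fell from 531.4, 492.7 and 400.2 CPM in WT to 336.6, 274.2 and 301.6 CPM in Drp1 KO libraries, a log2 fold change of -0.64 (adjusted p = 0.0229, edgeR). *Adam17*, which sheds CD163, had -0.46 (adjusted p = 0.0432), and *Adam10* -0.10 (adjusted p = 0.685). Of 12 regulators tested, 1 was called, *Maf*, a transcription factor of M2-like macrophages, which fell from 886.6, 719.9 and 821.9 CPM to 528.2, 564.1 and 611.7 CPM (log2 fold change -0.51, adjusted p = 0.0335, edgeR). *Stat6* (-0.01) and *Cebpb* (-0.07) lay near 0, and *Klf4* had 0.62 (adjusted p = 0.204, or 0.00247 with the replicate block).

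Among ligands, 0 of 11 tested were called by edgeR, with 5 at an unadjusted p under 0.05, 1 called by DESeq2 and 0 by limma-voom. *Apoe*, the apolipoprotein that LRP1 and SR-BI bind, was at 5768, 4957 and 4305 CPM in WT and at 4296, 3280 and 2018 CPM in Drp1 KO libraries, a log2 fold change of -0.65 (adjusted p = 0.187, or 0.00271 with the replicate block, edgeR). *Lpl* had -0.03, *Calr* -0.30 (adjusted p = 0.264) and *Fn1* -0.47 (adjusted p = 0.285). Of 9 chaperones and adaptors, 0 were called by edgeR, with 2 at an unadjusted p under 0.05 and 1 called by each of DESeq2 and limma-voom. *Cltc*, the clathrin heavy chain, had -0.34 (adjusted p = 0.0857, or 0.00967 with the replicate block), *Ap2m1* -0.30 (0.225, or 0.0183 with the replicate block) and *Dab2* 0.13. Of 7 cargo-handling genes, *Abca1*, which exports cholesterol from macrophages, fell from 1902 ± 175 to 1337 ± 64.8 CPM (log2 fold change -0.51, adjusted p = 0.0297, edgeR). *Hmox1*, which degrades haem, had -0.54 (adjusted p = 0.123, or 0.00461 with the replicate block), while *Lipa* (-0.06) and *Soat1* (-0.16) differed by less.

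**Figure D5:**
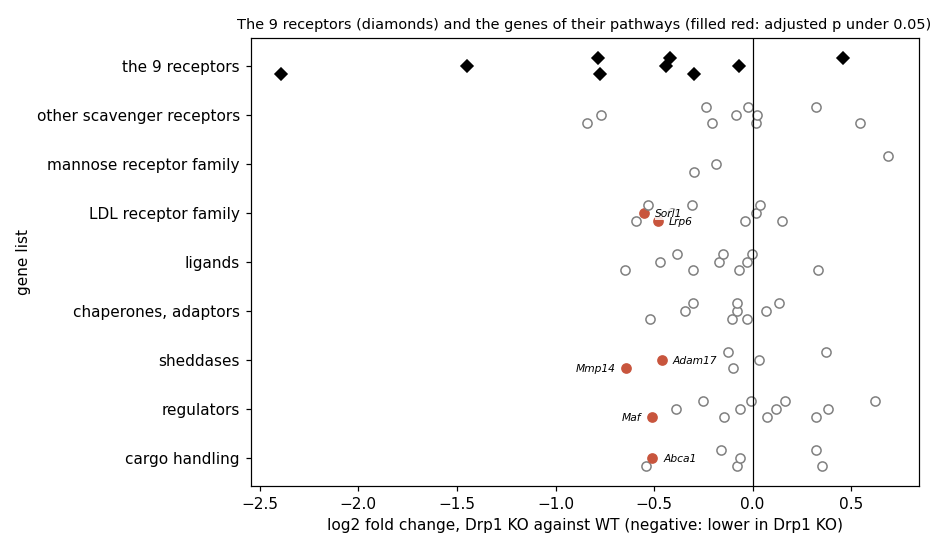
Log2 fold change, Drp1 KO against WT, of the 9 receptors (black diamonds, calls not drawn) and of 67 other genes in 8 lists (circles, filled red where the edgeR adjusted p is under 0.05 and named). *Hpx*, at or under 3 counts in every WT library, is not drawn; the 6 filled genes lie between -0.64 and -0.46.

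The number of these calls moved with the libraries used as well. Without WT library 2 or Drp1 KO library 2, 0 of the 68 passed (edgeR, with 16 and 18 at an unadjusted p under 0.05), without WT library 3 *Mmp14* alone did, and without Drp1 KO library 3 *Sorl1* alone did. Without WT library 1, *Sorl1*, *Mmp14* and *Abca1* passed, and without Drp1 KO library 1 *Adam17* and *Maf* did not, while *Apoe* and *Hmox1*, among others, did. The log2 fold changes stayed negative for all 6 genes in these fits, from -0.55 to -0.40 for *Lrp6*, from -0.64 to -0.47 for *Sorl1*, from -0.54 to -0.40 for *Adam17*, from -0.76 to -0.56 for *Mmp14*, from -0.61 to -0.44 for *Maf* and from -0.56 to -0.45 for *Abca1*. With length-scaled counts, *Lrp6* (log2 fold change -0.30, adjusted p = 0.204), *Adam17* (-0.35, adjusted p = 0.133) and *Maf* (-0.49, adjusted p = 0.0587, edgeR) no longer passed.

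Summed markers of other cells differed between the groups for some lists, and their part in the receptor differences was not tested. Of 11 neutrophil markers, 8 could be tested and all 8 were higher in sign in Drp1 KO libraries, with 0 called by edgeR, 5 at an unadjusted p under 0.05, 2 called by DESeq2, 0 by limma-voom and 5 with the replicate block. Their summed level was 92.5 to 101.4 CPM, here without TMM scaling, in WT libraries against 121.1 to 225.9 in Drp1 KO libraries, and *Ly6g* had 0 counts. *Mmp8* made up most of this sum, at 89.05, 70.43 and 76.26 CPM in WT libraries and 186.0, 69.26 and 173.9 CPM in Drp1 KO libraries, and its groups overlapped. Endothelial markers summed to 12.57 to 15.04 in WT libraries against 20.03 to 25.37 in Drp1 KO libraries, with 1 of 5 called, *Kdr* (higher, from a mean of 10.06 to 19.37 CPM). *Kdr* carried this sum: 3 of the 5 endothelial markers were lower in sign, and the median log2 fold change of the list was -0.22. Dendritic cell markers (3.60 to 6.04 and 2.32 to 4.59), fibroblast markers (13.5 to 22.1 and 12.9 to 17.1) and lymphocyte markers (8.00 to 9.67 and 7.48 to 11.6) overlapped between the groups, and *Cd209a* and *Ncr1* had 0 counts. Of the 8 macrophage markers, *Csf1r* (log2 fold change -0.52, adjusted p = 0.0340) and *Mertk* (-0.52, adjusted p = 0.0236) fell and *Fcgr1* rose (1.34, adjusted p = 0.000322, edgeR), while their summed level was 13170 to 13450 in WT libraries against 11670 to 14120 in Drp1 KO libraries.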

How the data were processed

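Poly(A) RNA of 3 WT and 3 Drp1 KO BMDM cultures was sequenced with paired-end reads. The authors quantified the reads with kallisto (0.46.1 in the submitters' processing notes, which also name DESeq2 1.44.0) against GRCm39 cDNA and deposited, per library and transcript, estimated counts and TPM. The deposited estimated counts are not scaled between libraries and need not be whole, and whether strand was used is not given in the sources used here. For *Msr1*, *Stab1*, *Cd163*, *Scarb1*, *Scarb2*, *Colec12* and *Lrp1*, antisense genes overlap in the annotation, so their reads cannot be told apart without strand.

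Transcripts were matched by identifier to GENCODE genes of GRCm39 (99.4% of 116873; 0.542% to 0.575% of a library's counts lay on the others and were left out). The estimated counts of the transcripts of each gene were summed, then rounded to whole numbers. The deposited TPM values were added per gene and used for levels between genes. Genes with at least 10 counts in total were fitted with edgeR 4.0.16 (R 4.3.3, TMM, quasi-likelihood, Benjamini-Hochberg adjustment over all genes, no covariate), where the study's methods used DESeq2. The smallest two-sided p of an exact permutation test with 3 libraries a group is 0.1. The floor of 3 counts only marks very low values and does not cover counting error above it. In simulated counts of 18136 genes for this comparison, 200 of them changed 2-fold, 73% of the changed genes were recovered and 12 unchanged genes called.

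The 9 receptors, the 8 lists of other scavenging genes and the 6 marker lists were chosen with earlier results of these data known. The text names the 9 receptors, *Dnm1l*, in each list the genes called, the 3 of highest mean TPM and the 2 of largest log2 fold change at a mean of at least 1 CPM, the 5 genes most like *Mrc1*, and transcripts of receptors with at least 2 models of 5% of the counts each; the single models that dominate *Mrc1*, *Marco* and *Lrp1*, and the markers, were named after their values were seen. A gene that this rule selects is not reported here.

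The groups share replicate numbers. Deviations from the group means correlated at 0.510, 0.204 and 0.298 between same-numbered libraries over 12248 genes, each over 0.1, although the value was 0.326, higher than for libraries 2 or 3 by number, between WT library 2 and Drp1 KO library 3. On these correlations alone, since no source states it, same-numbered libraries were treated as pairs in the replicate block. The main fit had no covariate. Libraries numbered 1 stood apart in both groups, which pushes libraries 2 and 3 to correlate whichever way they are paired. The correlations therefore cannot decide how libraries 2 and 3 pair. No library was a copy of another (chi-square per degree of freedom at least 10.4 within groups). Alternatives were DESeq2 1.42.0, limma-voom (limma 3.58.1), median-of-ratios size factors, library size only, filterByExpr, a filter of 1 count, length-scaled counts, the replicate block and each library left out; leaving out libraries numbered 1 was added after the data were seen.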

Additional observations from a re-analysis of the deposited data

How the results depend on the processing

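Over 15 other settings, the log2 fold change of *Mrc1*, *Msr1*, *Stab1*, *Cd163*, *Marco*, *Scarb2*, *Colec12* and *Lrp1* kept its sign, and that of *Scarb1*, never called, lay between -0.13 and 0.00. The number of receptors called, 5 of 9, was 3 with length-scaled counts (*Stab1*, *Marco* and *Colec12*), 8 with the replicate block and 1 to 5 with each library left out. It was 7 with DESeq2 and with libraries numbered 1 left out, and 5 or 6 under the others. Calls over all genes moved too, from 621 of 18506 to 1155 of 18506 with DESeq2 and 2212 of 18506 with the replicate block. They were 1065 of 24023 with a filter of 1 count, 452 of 18569 with length-scaled counts and 1880 of 17907 with libraries numbered 1 left out. The number of other scavenging genes called, 6 of 68, was 12 with DESeq2, 3 with length-scaled counts, 11 with a filter of 1 count, 21 with the replicate block, 18 with libraries numbered 1 left out (added after the data were seen), and 0 to 7 with each library left out. The cause of these moves was not tested. The block changed the calls of *Cd163*, *Scarb2* and *Lrp1* among the receptors and no other receptor call. The receptors' median log2 fold change of -0.44 ran from -0.59 to -0.44 with each library left out. *Dnm1l* was called under no setting.

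By counts per kilobase of annotated exons, 3 of 9 places in the WT order were kept. As a share of TPM in place of counts in WT BMDMs, Msr1-201 had 21.1%, Scarb1-202 18.2%, Stab1-205 60.1% and Colec12-201 74.3%. The 5 genes most like *Mrc1* were the same 5 at a minimum of 1 CPM. No scaling moved the median of all genes by over 0.1 on the log2 scale. The depth limits *Cd163*, at 9 to 56 counts per library.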
